A study of Rattus norvegicus with 4 samples.

Results

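The genes of hyaluronan synthesis, binding and breakdown were described in 4 mammary cancers of female Sprague-Dawley rats exposed to carbon ions. The set was defined by name as 8 genes: the synthases Has1, Has2 and Has3, the hyaluronidases Hyal1, Hyal2 and Cemip2, the receptor Cd44 and the matrix proteoglycan Vcan. Of these 8, 5 had a probe set assigned to a single gene (Has2, Cemip2, Hyal2, Cd44 and Vcan), with 10 probe sets in all, out of 14217 genes and 20826 such probe sets on the array. Has1, Has3 and Hyal1 had none and are not analysed here. Cemip2 had already been singled out on these arrays for its spread between tumours, so its values are a description and carry no test. All rats received 1 whole-body dose of 0.5 Gy of carbon ions (290 MeV/u, with a spread-out Bragg peak of 6 cm) at 7 weeks of age and ate a diet with 23.5% corn oil from 9 weeks of age. Each cancer was hybridised to 1 array. Whether the 4 cancers came from separate rats is not stated in the labels. The 4 cancers form 1 group, so every difference below lies between individual tumours and no value measures an effect of irradiation or diet.

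Hyaluronan is a very long, unsulphated sugar chain of the extracellular matrix. Synthases in the plasma membrane assemble it from nucleotide sugars and extrude it, hyaluronidases cut it outside the cell and in lysosomes, and cell-surface receptors such as CD44 and proteoglycans such as versican bind it. In mammary tissue it is prominent in the stroma around ducts and is often abundant around tumour cells, and the length of its chains is held to influence what cells do in contact with it.

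Levels are given as log2(signal + 16), where signal is the deposited linear intensity of a probe set, and errors are SD over the 4 tumours. On this scale 1 unit is close to 2-fold for bright probe sets and understates the change of dim ones. For a gene with several probe sets the one with the highest mean is its main value. A gene is said to reach the median level when its mean is at least 7.81, the median of all probe-set means, a signal of about 208.5. Levels of different genes were not set against each other, because probe sets differ in efficiency. Epithelial markers were looked up in the labelled tissue. All 12 luminal epithelial genes and 7 of 8 basal genes reached the median level, the exception being Oxtr. So did 9403 of all 14217 genes, 11 of 12 fibroblast genes and 10 of 12 macrophage genes. Reaching this level therefore does not mark the tissue as epithelial. Epcam, an epithelial adhesion molecule, measured 12.89, 13.23, 13.70 and 13.39 in tumours 1 to 4.

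Among the 5 measured members, Cemip2 and Cd44 had a 2-fold range, meaning that their highest tumour lay at least 1 log2 above their lowest, and Has2, Hyal2 and Vcan did not. Over all genes 21.1% had a 2-fold range, and 12.4% of the 9403 genes that reached the median level did. Cemip2 alone among the measured members had a 4-fold range, which 3.99% of all genes and 2.42% of genes reaching the median level had. The median range of the 5 members was 0.42 log2, beside 0.55 over all genes and 0.47 over those reaching the median level. With 5 members, 1 of them chosen for its spread, these counts describe the members and no more.

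**Figure D1:**
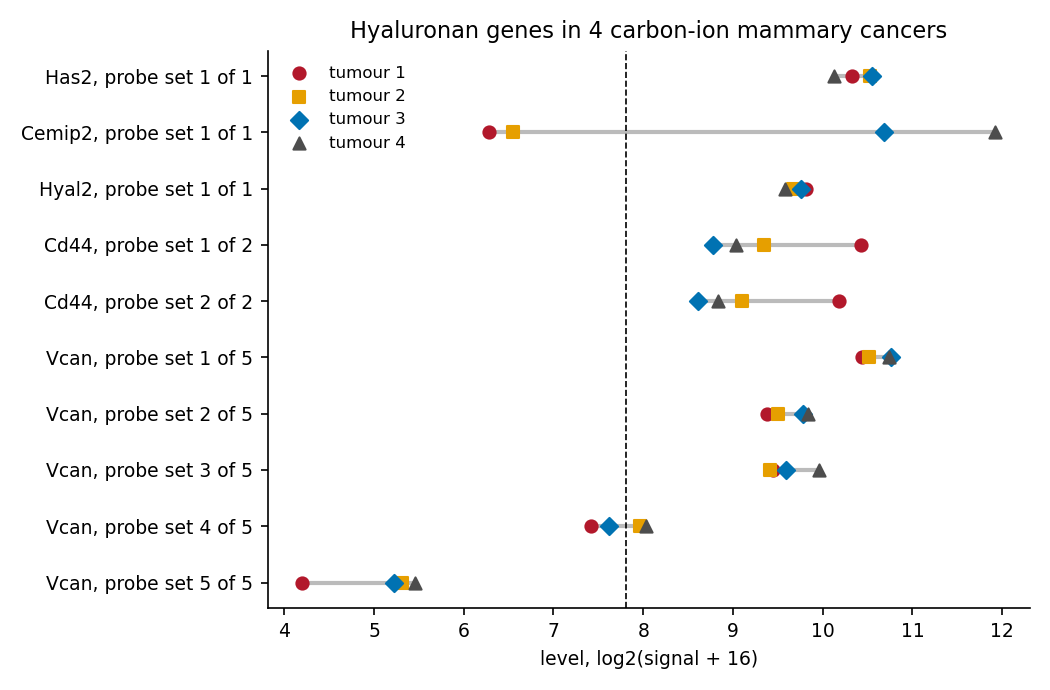
Level of each of the 10 probe sets of the measured hyaluronan genes in each tumour, as log2(signal + 16); symbols are tumours, grey bars join the lowest and the highest, and the dashed line is the median of all probe-set means, 7.81. Cemip2 splits the tumours into a low pair (6.28 and 6.55) and a high pair (10.68 and 11.92), both Cd44 probe sets are highest in tumour 1, and the points of Has2 and Hyal2 lie within 0.42 and 0.23 of one another.

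**Figure D2:**
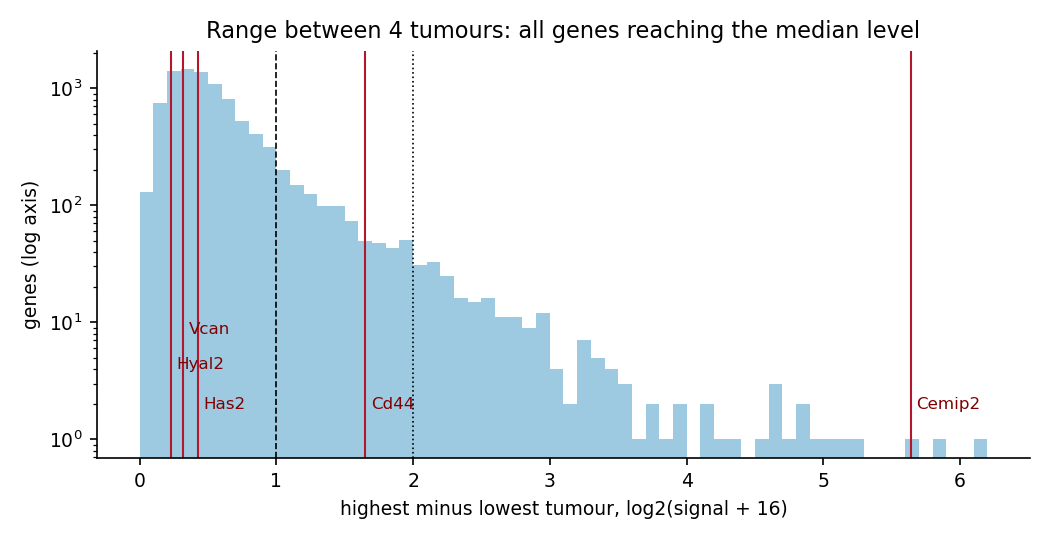
Histogram of the difference between the highest and the lowest tumour for the 9403 genes reaching the median level (log count axis), with the 5 measured members as red lines and the 2-fold and 4-fold limits as dashed and dotted lines. Hyal2 (0.23), Vcan (0.32) and Has2 (0.42) lie below the median gene (0.47), Cd44 (1.65) lies above the 2-fold limit and Cemip2 (5.64) lies near the right end.

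Synthesis was represented by Has2, the synthase that makes long hyaluronan chains and is needed for heart development in the mouse. Has2 was well above the median level in all 4 cancers, at 10.33, 10.53, 10.56 and 10.13 in tumours 1 to 4 (mean 10.39 ± 0.20, SD, n = 4). Its deposited signal was 1269, 1461, 1489 and 1105. Tumours 2 and 3 differed by 0.03 and were the highest, and tumour 4 was the lowest. The range of 0.42 log2 was smaller than that of the median gene, and 43.6% of genes reaching the median level had a smaller one. Has2 was read by a single probe set, so its pattern has no second reading.

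Of the 5 measured genes for enzymes that supply the sugar precursors, 4 reached the median level, as did 9403 of all 14217 genes. None of the 5 had a 2-fold range, beside 21.1% of all genes, and with 5 genes that is no result about the list. Ugdh, which oxidises UDP-glucose to UDP-glucuronic acid, measured 11.54, 11.39, 10.74 and 10.98 in tumours 1 to 4. Ugp2, which makes UDP-glucose, measured 11.71, 11.04, 10.94 and 10.89. Both were highest in tumour 1, where Has2 was neither highest nor lowest. On the hexosamine branch, Gfpt2, a form of the enzyme of the committed step, stayed between 9.04 and 9.31. Gnpnat1, which acetylates glucosamine 6-phosphate, was highest in tumour 2 at 11.05, and its lowest value was 10.30 in tumour 4.

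Breakdown was represented by Cemip2 and Hyal2. Cemip2 encodes a transmembrane protein that was described in the mouse as a cell-surface hyaluronidase. Its level was 6.28, 6.55, 10.68 and 11.92 in tumours 1 to 4 (mean 8.86 ± 2.87, SD, n = 4). The deposited signal was 61.7, 77.9, 1624 and 3863. Tumours 1 and 2 were low and close to each other, tumours 3 and 4 were high, and the gap between the pairs was 4.13 log2. On their own arrays the 2 low signals exceeded 23.8% and 30.2% of all probe sets, and the 2 high ones exceeded 90.6% and 97.7%. Tumours 3 and 4 themselves differed by 1.24 log2, and tumours 1 and 2 by 0.27.

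The highest Cemip2 signal was 62.6 times the lowest, and on the log2 scale with the pseudocount the range was 5.64. The low pair lay under the median level, and no detection call was used here, so the size of the difference is uncertain: it was 5.95 with a pseudocount of 1 and 4.97 with a pseudocount of 64. Without tumour 4 the range was 4.40, and it was at least 5.37 when any other single tumour was left out. Cemip2 reached the median level through tumours 3 and 4 alone. By SD it ranked 1 among the 9403 genes at that level, which is how it came to be chosen, and by range it ranked 3. A single probe set read Cemip2, so the split has no second reading at the level of probes.

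A gap of at least 2 log2 between a high pair and a low pair of tumours was found in 5 genes that reached the median level (0.0532%). Cemip2 was the 1 of these with tumours 3 and 4 high. The other 4 split the tumours differently: Thbs4 was high in tumours 1 and 3, Jchain in tumours 1 and 4, and Aadat and Fam111a in tumours 2 and 3. Cemip2 was chosen for its spread and reached the median level through tumours 3 and 4 alone. The 0.0532% is therefore a description and does not measure how rare its split is. The order of tumours in Cemip2, with 4 above 3, 3 above 2 and 2 above 1, was shared by 5.64% of genes reaching the median level. It was shared by 3 of 12 luminal genes and by no gene of the basal, fibroblast, macrophage, T-cell, endothelial, adipocyte or proliferation lists.

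The genes of most similar pattern were found by the root mean square difference between centred profiles, that is, each gene minus its own mean, over the 4 tumours. For Cemip2 the 3 nearest were Upk3a (a uroplakin of urothelium, 1.23), the uncharacterised LOC102552398 (1.27) and Acsm3 (a medium-chain acyl-CoA synthetase, 1.42). The difference is not scaled to the spread of a gene, and Cemip2 ranked 1 by SD among the 9403 genes reaching the median level. Its distances are therefore large in part because its spread is large, and they do not decide whether other genes share its pattern. All 3 genes had the order of tumours of Cemip2. Upk3a measured 7.83, 7.96, 9.62 and 11.05 in tumours 1 to 4, with the same low and high pairs but a range of 3.22. Acsm3 was high in tumour 4 at 10.75, and its other values lay between 5.90 and 7.51.

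Hyal2 encodes a hyaluronidase anchored in the plasma membrane that cuts long chains into intermediate ones. It varied least of the 5 members. Its level was 9.81, 9.66, 9.75 and 9.58 in tumours 1 to 4 (mean 9.70 ± 0.10, SD, n = 4), and its signal was 882, 795, 848 and 749. The range of 0.23 was larger than that of 13.3% of genes reaching the median level. Hyal2 thus lay within 0.23 log2 in the same 4 tumours in which Cemip2 spanned 5.64. In the rat assembly GRCr8 the genes Hyal2, Hyal1, Naa80 and Hyal3 follow one another on a single chromosome. Hyal3, whose product resembles the other hyaluronidases and whose enzymatic activity is uncertain, measured 9.54, 9.60, 10.18 and 9.87 in tumours 1 to 4 on its brighter probe set and 8.44, 7.83, 8.17 and 8.43 on the other. The probe sets disagreed, since tumour 1 was the lowest on the first and the highest on the second.

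Cemip, a relative of Cemip2 whose product is needed for hyaluronan breakdown by human skin fibroblasts, had a different pattern. It measured 8.84, 5.69, 6.84 and 7.32 in tumours 1 to 4, a range of 3.16. Tumour 1 was the highest for Cemip and the lowest for Cemip2, and tumour 2 was low for both. Cemip had a single probe set and its mean of 7.17 was below the median level, as were its values in tumours 2, 3 and 4. The lysosomal exoglycosidases that remove the end sugars of hyaluronan fragments had ranges under 1 log2. Gusb (beta-glucuronidase) measured 10.41, 10.03, 9.92 and 9.70 in tumours 1 to 4. Hexa (a subunit of beta-hexosaminidase) measured 11.06, 11.30, 11.18 and 10.68. Both were lowest in tumour 4.

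**Figure D3:**
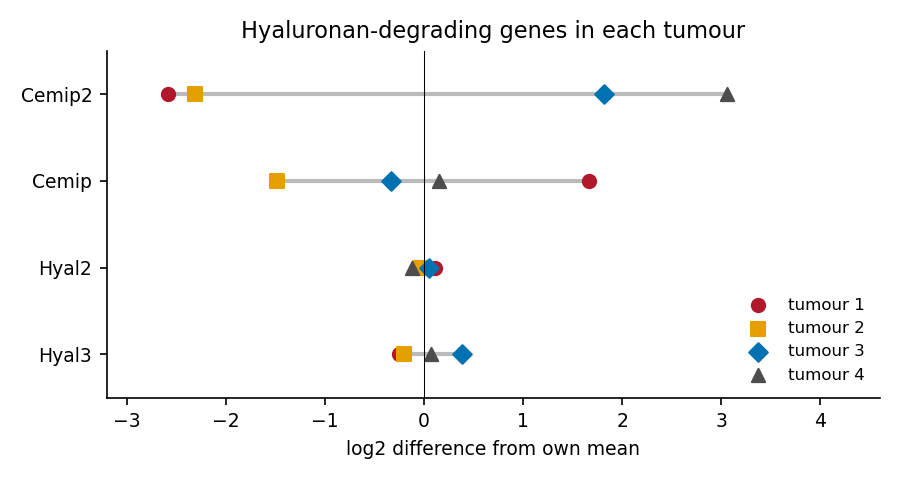
Level of 4 genes of hyaluronan breakdown or of the hyaluronidase families in each tumour, as the log2 difference from the gene's own mean over the 4 tumours, main probe set; symbols are tumours and grey bars join the lowest and the highest. Cemip2 is low in tumours 1 and 2 and high in tumours 3 and 4, Cemip is high in tumour 1 and low in tumour 2, and Hyal2 and Hyal3 span 0.23 and 0.64. The other probe set of Hyal3, not drawn, put the tumours in another order.

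Binding at the cell surface was represented by Cd44, the main hyaluronan receptor of many cell types. CD44 is made by epithelial cells, fibroblasts and leukocytes, and its transcript is spliced into many variants, one of which was first linked to metastasis in rat carcinoma cells. Cd44 measured 10.43, 9.34, 8.78 and 9.03 in tumours 1 to 4 (mean 9.39 ± 0.73, SD, n = 4) on its brighter probe set. The other probe set gave 10.18, 9.10, 8.62 and 8.84 (mean 9.18 ± 0.70, SD, n = 4). The signals were 1359, 634, 422 and 507 on the first and 1147, 531, 376 and 442 on the second. Both probe sets put the tumours in the same order, and after centring they differed by at most 0.05 log2 in any tumour. They share the RNA, the labelling and the array, so this agreement covers probes only. The values do not separate the splice variants.

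Tumour 1 accounted for most of the Cd44 range. It lay 1.08 log2 above the next tumour on the first probe set and 1.09 on the second, and the highest signal was 3.22 and 3.05 times the lowest. Of genes reaching the median level, 1.17% were at least 1 log2 above each other tumour in tumour 1. Without tumour 1 the range of Cd44 was 0.57 and the 2-fold range was lost, which left Cemip2 as the 1 member with a 2-fold range. The genes nearest to Cd44 in pattern over the 4 tumours were Anpep (aminopeptidase N, root mean square difference 0.05), Scarb1 (a receptor for high-density lipoprotein, 0.06) and Gstm5 (a glutathione transferase, 0.09). Anpep measured 9.63, 8.60, 8.11 and 8.24 in tumours 1 to 4. Scarb1 had 2 probe sets, and only the brighter one was compared. These genes were picked as the nearest of all that reached the median level, over only 4 tumours. Their closeness is therefore a description and carries no test.

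Some macrophage genes shared the pattern of Cd44. The order of tumours in Cd44 had 1 above 2, 2 above 4 and 4 above 3. It was shared by 5 of 12 macrophage genes (Cd68, C1qa, C1qb, C1qc and Aif1), beside 5.05% of genes reaching the median level. C1qa, C1qb and C1qc had closely alike profiles and do not count as separate support. Among the basal genes 1 of 8 (Trim29) shared the order. Also 2 of 8 T-cell genes (Cd3d and Cd8a) shared it, but both were below that level, so this share is no background for them. Of the macrophage genes, 9 of 12 were highest in tumour 1 and 8 of 12 were lowest in tumour 3. Their median difference from the own mean was 0.80, 0.03, -0.76 and -0.05 in tumours 1 to 4, and Cd44 lay at 1.03, -0.05, -0.62 and -0.36. The summed signal of the macrophage genes was 21672, 12794, 9822 and 13103. Cd163 and Itgam were below the median level, and no marker was at 0. All 8 T-cell genes were lowest in tumour 3, as Cd44 was, and 3 of the 8 were highest in tumour 1 and 4 in tumour 4. Their summed signal was 2530, 2078, 1235 and 2357 in tumours 1 to 4, and 5 of the 8, Cd3d, Cd3e, Cd2, Cd8a and Cd247, were below the median level. Fibroblast genes were highest in tumour 1 in 7 of 12 cases and in tumour 3 in the other 5. Their summed signal was 53063, 41230, 50595 and 16664 in tumours 1 to 4. The list did not move as one. In tumour 3 Dcn, Lum and Fap lay below their own means (-0.23, -0.35 and -0.32), and the other fibroblast genes lay above theirs. Luminal genes were lowest in tumour 1 in 10 of 12 cases, with summed signals of 32822, 59879, 70373 and 61551. What share of all genes was highest or lowest in a given tumour was not computed. The counts of marker genes highest or lowest in a tumour, here and elsewhere, therefore describe the lists only. The part of the cell makeup in the Cd44 difference was not tested. In bulk tissue, fewer cells of a type and less RNA per cell cannot be told apart.

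**Figure D4:**
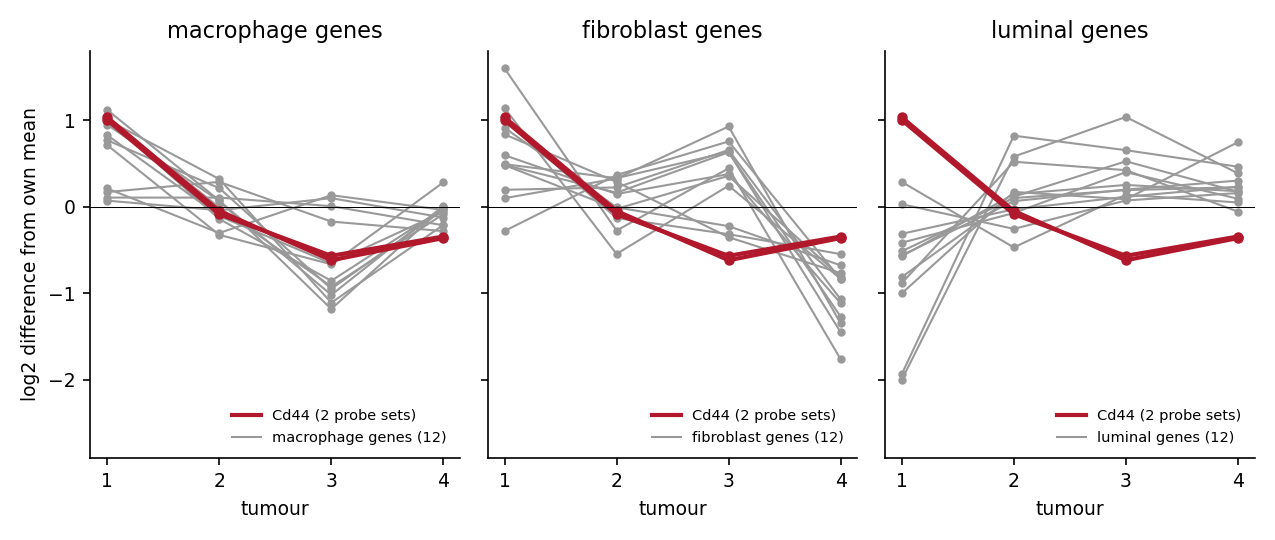
Both Cd44 probe sets (red) beside 12 macrophage, 12 fibroblast and 12 luminal genes (grey), each as the log2 difference from its own mean in tumours 1 to 4; lines join the values of 1 probe set and carry no order of tumours. Cd44 is highest in tumour 1 and lowest in tumour 3, as are 9 and 8 of the 12 macrophage genes, while luminal genes are lowest in tumour 1 in 10 of 12 cases and all 12 fibroblast genes are lowest in tumour 4. The same shares over all genes were not computed.

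Of 9 measured genes whose products act with CD44 or on its splicing, 2 had a 2-fold range, Spp1 and Mmp9 (22.2%, beside 21.1% of all genes). Ezr, Rdx and Msn encode ezrin, radixin and moesin, which tie the CD44 tail to actin. Ezr was lowest in tumour 1 at 12.39, and its other values lay between 12.83 and 13.14. Rdx and Msn spanned 0.19 and 0.25 on their brightest probe sets. Esrp1, a splicing factor of epithelial cells that favours the variant forms of CD44, measured 11.15, 11.62, 11.56 and 11.40 in tumours 1 to 4. Spp1, which encodes the CD44 ligand osteopontin, had a 4-fold range, at 9.81, 11.19, 8.30 and 9.46 in tumours 1 to 4, with tumour 2 highest and tumour 3 lowest. Mmp9, a gelatinase that docks on CD44 in mouse tumour cells, was dim, and both its probe sets were highest in tumour 1 (7.59 and 7.80, against at most 6.15 and 5.67 elsewhere).

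Of the 6 other measured hyaluronan receptors, 5 reached the median level, beside 9403 of all 14217 genes, and none had a 2-fold range. Beside 21.1% of all genes, 0 of 6 is no result about the receptors as a list. Lyve1, the receptor of lymphatic endothelium, measured 8.71, 8.86, 8.76 and 7.99 in tumours 1 to 4, and its other probe set gave 8.07, 8.16, 8.25 and 7.43. Tumour 4 was the lowest on both. Hmmr, whose product binds hyaluronan and the mitotic spindle, stayed between 8.13 and 8.40 on its brighter probe set. Tumour 2 was the highest for all 8 proliferation genes but not for Hmmr.

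The matrix side was represented by Vcan, which encodes versican, a large chondroitin sulphate proteoglycan that binds hyaluronan at its amino-terminal end. Versican is spliced into forms that differ in the stretch that carries the sugar chains. Vcan had 5 probe sets. The brightest measured 10.44, 10.51, 10.76 and 10.74 in tumours 1 to 4 (mean 10.61 ± 0.16, SD, n = 4), and its signal was 1375, 1447, 1719 and 1690. The next measured 9.38, 9.50, 9.78 and 9.84, and the third 9.45, 9.41, 9.60 and 9.96. Their ranges were 0.32, 0.46 and 0.55, so Vcan varied little on its bright probe sets.

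The dim Vcan probe sets measured 7.42, 7.96, 7.62 and 8.03 and, for the dimmest, 4.20, 5.31, 5.22 and 5.46. The dimmest was the 1 Vcan probe set with a 2-fold range (1.26, beside 22.2% of probe sets assigned to a single gene), and its signal was 2.4 in tumour 1 and at most 27.9 elsewhere. All 5 probe sets were higher in tumours 3 and 4 than in tumour 1, and 4 of the 5 were highest in tumour 4. On the brightest probe set tumours 3 and 4 differed by 0.02, and its range was 0.45 once the arrays were shifted to a common median. All 12 fibroblast genes were lowest in tumour 4, whose summed fibroblast signal of 16664 was the lowest of the 4. Any link between the level of Vcan and fibroblast content was not tested.

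All 8 measured partners and proteases of versican reached the median level, beside 9403 of all 14217 genes. Of the 8, 3 (37.5%) had a 2-fold range, beside 12.4% of all genes at that level. The list is small, and the count describes these genes only. Fbn1, which encodes fibrillin-1 and is also on the fibroblast list, measured 10.93, 10.48, 10.71 and 9.22 in tumours 1 to 4. Its other probe set, at 10.55, 9.80, 9.82 and 8.77, was also lowest in tumour 4. Fbln1, which encodes fibulin-1, measured 9.10, 7.15, 9.30 and 7.64, with tumours 1 and 3 high. Its other probe set was dim and did not show this, at 5.70, 5.58, 6.09 and 6.34.

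Adamts15, a protease that cuts versican, measured 8.68, 8.74, 9.83 and 9.66 in tumours 1 to 4. Tumours 3 and 4 were the higher pair, as for Cemip2, with a range of 1.15 in place of 5.64. Adamts1, which cuts versican too, was bright and spanned 0.68. The remaining proteases Adamts4 and Adamts9 spanned 0.38 and 0.45 on their brighter probe sets, and Fbln2, which encodes fibulin-2, spanned 0.71. For Adamts5 the probe sets disagreed in size: the brighter one measured 8.33, 7.55, 7.57 and 7.86 in tumours 1 to 4 (range 0.78), and the other measured 8.52, 7.31, 6.09 and 7.58 (range 2.43). Tumour 1 was the highest on both.

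None of the 13 measured genes of the remaining matrix binders reached the median level, which 9403 of all 14217 genes reached. This list holds the link proteins (Hapln1 to Hapln4), the cartilage and brain proteoglycans Acan, Bcan and Ncan, Tnfaip6, the Itih heavy chains that Tnfaip6 transfers to hyaluronan, and Ambp. A 2-fold range was found in 5 of the 13, and 38.1% of all genes below the median level had one. Itih2 spanned the most, 3.11, at 4.41, 5.40, 7.52 and 4.87 in tumours 1 to 4. Hapln2 measured 8.25, 7.37, 6.39 and 6.99 on its brightest probe set, while its next probe set spanned 0.18.

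Over all 6 lists of other hyaluronan genes, 11 of the 46 measured genes (of 55 listed) had a 2-fold range, or 23.9% beside 21.1% of all genes. Among those reaching the median level, 4 of 28 did (14.3% beside 12.4%), namely Fbln1, Fbn1, Adamts15 and Spp1. The genes called other hyaluronan genes here include the partners and proteases of versican and the partners of CD44. All 4 of the genes just named came from those lists. Both shares were close to those over all genes. The other 24 that reached the median level stayed within 2-fold on the main probe set, but a second probe set had a 2-fold range for Adamts5 (2.43) and Nf2 (1.17). The median range of the 46 genes was 0.69, beside 0.55 over all genes. That of the 28 reaching the median level was also 0.69, beside 0.47 over all genes at that level. By this measure the lists varied somewhat more than genes at large.

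**Figure D5:**
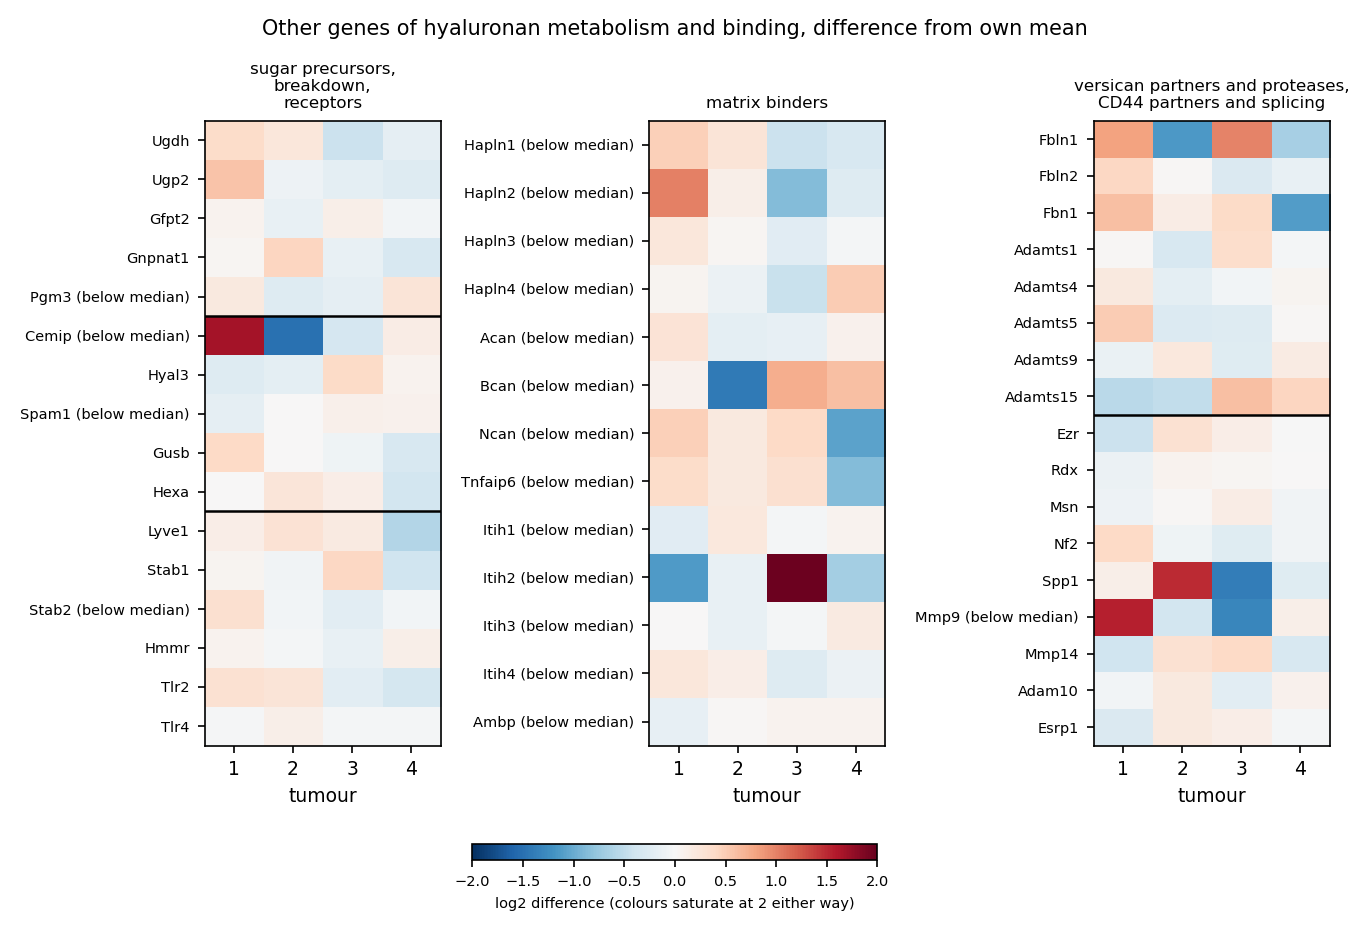
Difference of each of the 46 other measured hyaluronan genes, partners of versican and CD44 included, from its own mean over the 4 tumours (log2, main probe set), red above and blue below, in panels by role with black lines between lists; genes whose mean is below the median level are marked. Most squares are pale, and the strong ones belong mainly to Cemip, Itih2, Mmp9, Spp1, Fbln1, Fbn1, Bcan and Hapln2.

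Start-site sequence was available from RefSeq for Has1, Hyal1, Hyal2, Cd44 and Vcan. The windows of Cd44, Vcan and Hyal2 are printed to set the start region of a gene that varied between the tumours beside those of 2 genes that varied little. They run from 250 bases before to 50 bases after the annotated start, 5′ to 3′ on the gene's strand, on assembly GRCr8. RefSeq gives 2 starts for Vcan, and the first is printed. Capitals mark matches on either strand to 5 short motifs: the TATA box (TATAAA), the CCAAT box (CCAAT), the GC box (GGGCGG), the AP-1 site (TGANTCA) and the cAMP response element (TGACGTCA).
Cd44, chr3:109699375-109699674, minus strand: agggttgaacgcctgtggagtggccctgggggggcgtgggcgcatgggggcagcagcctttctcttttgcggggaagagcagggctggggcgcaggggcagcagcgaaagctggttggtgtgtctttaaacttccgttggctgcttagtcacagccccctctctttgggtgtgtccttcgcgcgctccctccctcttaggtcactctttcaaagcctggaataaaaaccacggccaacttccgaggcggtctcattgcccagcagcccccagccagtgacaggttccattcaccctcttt
Vcan, chr2:22595906-22596205, minus strand: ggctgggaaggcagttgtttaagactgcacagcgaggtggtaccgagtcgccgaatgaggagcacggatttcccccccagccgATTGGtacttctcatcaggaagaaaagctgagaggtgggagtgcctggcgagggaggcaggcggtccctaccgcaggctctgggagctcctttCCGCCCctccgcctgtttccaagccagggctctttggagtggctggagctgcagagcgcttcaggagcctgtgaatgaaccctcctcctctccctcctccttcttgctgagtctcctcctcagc
Hyal2, chr8:117121552-117121851, plus strand: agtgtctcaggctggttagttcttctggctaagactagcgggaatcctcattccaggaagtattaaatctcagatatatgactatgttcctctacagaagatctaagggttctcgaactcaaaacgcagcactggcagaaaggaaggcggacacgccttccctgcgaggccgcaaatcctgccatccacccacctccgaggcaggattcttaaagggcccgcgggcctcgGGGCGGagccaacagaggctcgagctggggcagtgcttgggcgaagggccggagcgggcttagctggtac
The Cd44 window held no match to any of the 5 motifs. That of Vcan held 1 CCAAT box and 1 GC box, both on the opposite strand. The window of the second Vcan start, which overlaps the first, held the GC box and no CCAAT box. That of Hyal2 held 1 GC box. No 2 matches overlapped. Of 33469 windows of this length, 33.1% held a GC box, 37.5% a CCAAT box, 14.2% a TATA box, 7.33% an AP-1 site and 1.83% a cAMP response element. The matches are a description of the letters, since the arrays measured transcripts and not promoters.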

How the data were processed

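Biotin-labelled cRNA from 8 µg of total RNA, primed at the poly(A) tail, was hybridised to 1-colour arrays, per the labels' protocols. The values deposited by the authors are linear intensities of 31099 probe sets in 4 tumours. How the authors corrected and scaled them is not given in the sources used here. Each array had a mean of 500.1 once 2% was trimmed from either end, medians were 201.8 to 221.9, and no 2 arrays were identical. Precision is limited by the number of arrays, and detection calls were not used. Probe sets were named from the platform annotation. In the counts of genes, 436 naming several genes, control probe sets and 9831 without an entry were left out. The median level, the 75th percentile and the shares of each array used all 31099 probe sets, so 9403 of the 14217 genes reached the median level. All 8 member symbols are in the RefSeq table of GRCr8. Values were taken as log2(signal + 16) with no further scaling. Range, SD and gaps were computed with Python 3.11.15, pandas 2.3.3 and numpy 2.4.6, and checked on simulated data. With 1 group and 1 array a tumour no test was run. The spread is between tumours and includes technical error. Alternatives were pseudocounts of 1 and 64, a common median, quantile normalization, averaged probe sets, level filters and leaving out each tumour. Named were all members, pathway genes with a 2-fold range at the median level, other pathway genes by role, and the 3 genes nearest in pattern to each member with a 2-fold range. Thbs4, Jchain, Aadat, Fam111a and the dim Cemip, Mmp9, Itih2 and Hapln2 were singled out after their values were seen. The members and lists were chosen with earlier results of these data known.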

Additional observations from a re-analysis of the deposited data

Results flagged for a closer look

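Of 56 probe sets examined (those of the members and the main ones of the other hyaluronan genes), 2 had a tumour far from the other 3 for the spread of the group. About 1 in 20 such groups is expected to do so by chance. Tlr4, an innate receptor, was at 8.19 in tumour 2 and between 8.03 and 8.04 elsewhere, a gap of 0.912 of the whole range, but that range was 0.16 log2. Tnfaip6, which transfers heavy chains to hyaluronan, was at 6.15 in tumour 4 and between 7.21 and 7.39 elsewhere, a gap of 0.858 of the range. It was below the median level, and its other probe set, at 5.27, 4.82, 4.11 and 4.12 in tumours 1 to 4, had no such gap.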

How the results depend on the processing

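Of 100 recomputed values, 84 stayed within the spread between tumours or within 1.5 times the count, and 16 moved. The rule is loose, since a member's range counted as unmoved when it changed by less than the gene's SD, 2.87 log2 for Cemip2. Leaving out a tumour that was neither highest nor lowest cannot change a range. Averaging the 5 Vcan probe sets raised its range to 0.62, from 0.32, since the dim probe sets then count. With genes at the 75th percentile of probe-set means or above, 3 members remained, and Cemip2 and Cd44 were left out. Cd44 missed the cut narrowly, with a mean of 9.39 against 9.42. The cut thus removed the members that had a 2-fold range. Of the 3 members that remained, 0 had a 2-fold or a 4-fold range, beside 8.97% of all genes at that level with a 2-fold range. The 0 follows from the cut. Other hyaluronan genes with a 2-fold range numbered 4 of 28 at the median level, beside 12.4% of all genes there. At the 75th percentile they numbered 2 of 18, beside 8.97%. Over all 14217 genes, a 2-fold range was found in 3000, and in 1618 with a pseudocount of 64. It was found in 1166 of 9403 genes at the median level and in 496 of 5528 at the 75th percentile. Counts under a level filter fall partly because fewer genes are counted. A 4-fold range was found in 1338 with a pseudocount of 1, 260 with 64, 228 at the median level and 96 at the 75th percentile, beside 567. Leaving out each tumour in turn gave ranges of 4.40 to 5.64 for Cemip2, 0.57 to 1.65 for Cd44, 0.23 to 0.42 for Has2, 0.15 to 0.23 for Hyal2 and 0.25 to 0.32 for Vcan. It gave 1 to 2 of the 5 members with a 2-fold range and 1 with a 4-fold range. Of the 46 other hyaluronan genes, 8 to 10 then had a 2-fold range. Over all genes, 1821 to 2453 had a 2-fold range (12.8% to 17.3%) and 258 to 453 a 4-fold range. The low values over all genes were those without tumour 1. A common median (shifts of -0.07 to 0.06 log2) or quantile normalization moved no member's range by more than 0.13. No paired analysis was possible because all samples form 1 group. Signals near background limit the size of differences in dim genes.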
